A study of Homo sapiens with 2 samples.

Results

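The zinc finger gene clusters of chromosome 19 were described through the tagged ETV6 peaks that fell inside them. Members were the chromosome 19 peaks whose summit lay in 1 of 5 windows in hg19 coordinates. Window 1 was chr19:19800000-24600000 (band 19p12) and window 2 was chr19:36600000-38300000 (19q13.12). Window 3 was chr19:44300000-45000000 (19q13.31), window 4 was chr19:52300000-54000000 (19q13.41), and window 5 was chr19:56000000-59128983 (19q13.43). The band names are not part of the rule and their limits were not checked, so a window may reach beyond its band. The windows covered 12.0 Mb and held 1120 of the 8779 peaks of the chromosome (12.8%) and of the 315787 peaks of the whole list (0.355%). Positions alone decided which peaks were members, and none of their heights or widths entered the rule. The windows and limits were, however, chosen with earlier results of these data known.

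The peaks came from Reh cells, an established t(12;21)-positive pre-B acute lymphoblastic leukaemia line. One pool carried the pCCL ETV6-HA vector, and its HA-tagged ETV6 was pulled down with anti-HA magnetic beads and the DNA sequenced. The other pool carried pCCL ETV6, the same factor without the tag, and went through the same beads as the negative control. Both pools received 200 ng of virus with 8 µg/mL polybrene and were kept for 2 weeks in culture. The series design mentions triplicates, but each arm is given as 1 pooled library, and the peak list was that of the tagged pool. No replicate spread could be measured, so no p-value is given. Intervals are exact 95% intervals that cover counting error over peaks only, and neighbouring peaks of 1 library are not independent.

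ETV6 is an ETS-family factor that binds DNA elements with a GGAA core and acts mainly as a repressor through corepressor complexes. C2H2 zinc finger genes, many of which also encode a KRAB domain, expanded on chromosome 19 by tandem duplication into long arrays of related genes. KRAB zinc finger proteins bind DNA through their fingers and recruit TRIM28, which brings in the histone H3 lysine 9 methyltransferase SETDB1. Many of them silence transposable elements; ZNF91 of 19p12, for instance, represses SVA retrotransposons. The coding ends of the zinc finger genes are themselves known for carrying methylated H3 lysine 9, which ZNF274 of 19q13.43 helps to place there.

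The labels of the windows could not be checked by position. Only the order of gene names was read, in a RefSeq gene table of another build (GRCh38.p14), whose coordinates were not used. The genes had been listed by textbook band, and the end genes of each run came from those lists. High shares were therefore likely from the start, and they place no gene in an hg19 window. Of 170 genes listed for the 5 bands, 167 were found there as protein-coding genes of chromosome 19. From ZNF90 to ZNF254 in 19p12, 31 of 33 consecutive protein-coding genes had a zinc finger name. The share was 29 of 30 from ZNF565 to ZNF573 in 19q13.12, and 19 of 19 from ZNF404 to ZNF180 in 19q13.31. It was 39 of 46 from ZNF577 to ZNF813 in 19q13.41, where genes such as PPP2R1A, a phosphatase subunit, stand among them. From ZNF787 to TRIM28 in 19q13.43 it was 64 of 84, and on the whole chromosome 265 of 1451 (18.3%). Whether a given peak lay in any of these genes was not analysed here.

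The arms were split at the longest stretch of the chromosome without a peak, 3.13 Mb between 24598071 and 27731989. No hg19 sequence was read, so whether reads could map in this stretch was not tested. Its lack of peaks is therefore not taken as a result. By this split, window 1 lay at the inner end of the short arm, while the other 4 windows lay on the long arm. The rest of the long arm, 24.2 Mb with 4149 peaks, was the reference. It fell into 4 stretches, before window 2 and between consecutive windows. Its first 500 kb, next to the peak-free stretch, stood apart. There, 13 of 90 peaks had a pileup, the number of reads over the summit, of at least 20, and 35.6% had a background above the level that most of the list shared.

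Peaks were sparser per Mb in the windows than in the rest of the long arm. Lengths are full lengths in hg19, and how much of them reads could map to was not tested. The 5 windows together had 93.1 peaks per Mb (95% interval 87.7 to 98.7), against 171.7 per Mb (166.5 to 177) in the rest. The ratio was 0.542 (0.507 to 0.580). The 4 long-arm windows alone had 110 per Mb, a ratio of 0.641 (0.593 to 0.691). The rest of the long arm was itself dense, however. The 19 autosomes other than 3, 19 and 21 had 110.9 peaks per Mb, and against them the ratio of the 5 windows rose to 0.840 (0.791 to 0.890).

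The windows fell into a sparse and a dense kind. Window 1 had 325 peaks, or 67.7 per Mb (60.5 to 75.5). Window 2 had 125, or 73.5 per Mb (61.2 to 87.6), and window 4 had 128, or 75.3 per Mb (62.8 to 89.5). These 3 had densities within counting error of each other, with ratios between 0.899 and 0.977 whose intervals all included 1. That holds for the whole of window 1, with the 51 peaks of its last 100 kb. Without those 100 kb, window 1 had 58.3 peaks per Mb, below the intervals of windows 2 and 4. Window 3 had 103 peaks, or 147.1 per Mb (120.1 to 178.5), and window 5 had 439, or 140.3 per Mb (127.5 to 154.1). The ratio of window 3 to window 5 was 1.05 (0.838 to 1.30). Each sparse window, taken whole, had about the same ratio to window 5, from 0.483 (0.417 to 0.558) for window 1 to 0.537 (0.437 to 0.655) for window 4.

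Against the rest of the long arm the ratios were 0.394 (0.351 to 0.442) for window 1, 0.428 (0.356 to 0.512) for window 2 and 0.439 (0.365 to 0.523) for window 4. Window 5 was also below, at 0.817 (0.739 to 0.902). For window 3 the ratio was 0.857 (0.698 to 1.04), and its interval included 1. The 4 stretches of the rest had 139.7, 197.7, 191.1 and 164.5 peaks per Mb in their order along the chromosome. Windows 1, 2 and 4 lay below all 4 stretches, while windows 3 and 5 lay just above the lowest. Against the 19 other autosomes, windows 1, 2 and 4 stayed below 1, at 0.610 to 0.679, and windows 3 and 5 turned to 1.33 and 1.27. Beside the rest of the short arm, with 179.8 peaks per Mb, window 1 had a ratio of 0.377 (0.335 to 0.422).

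**Figure D1:**
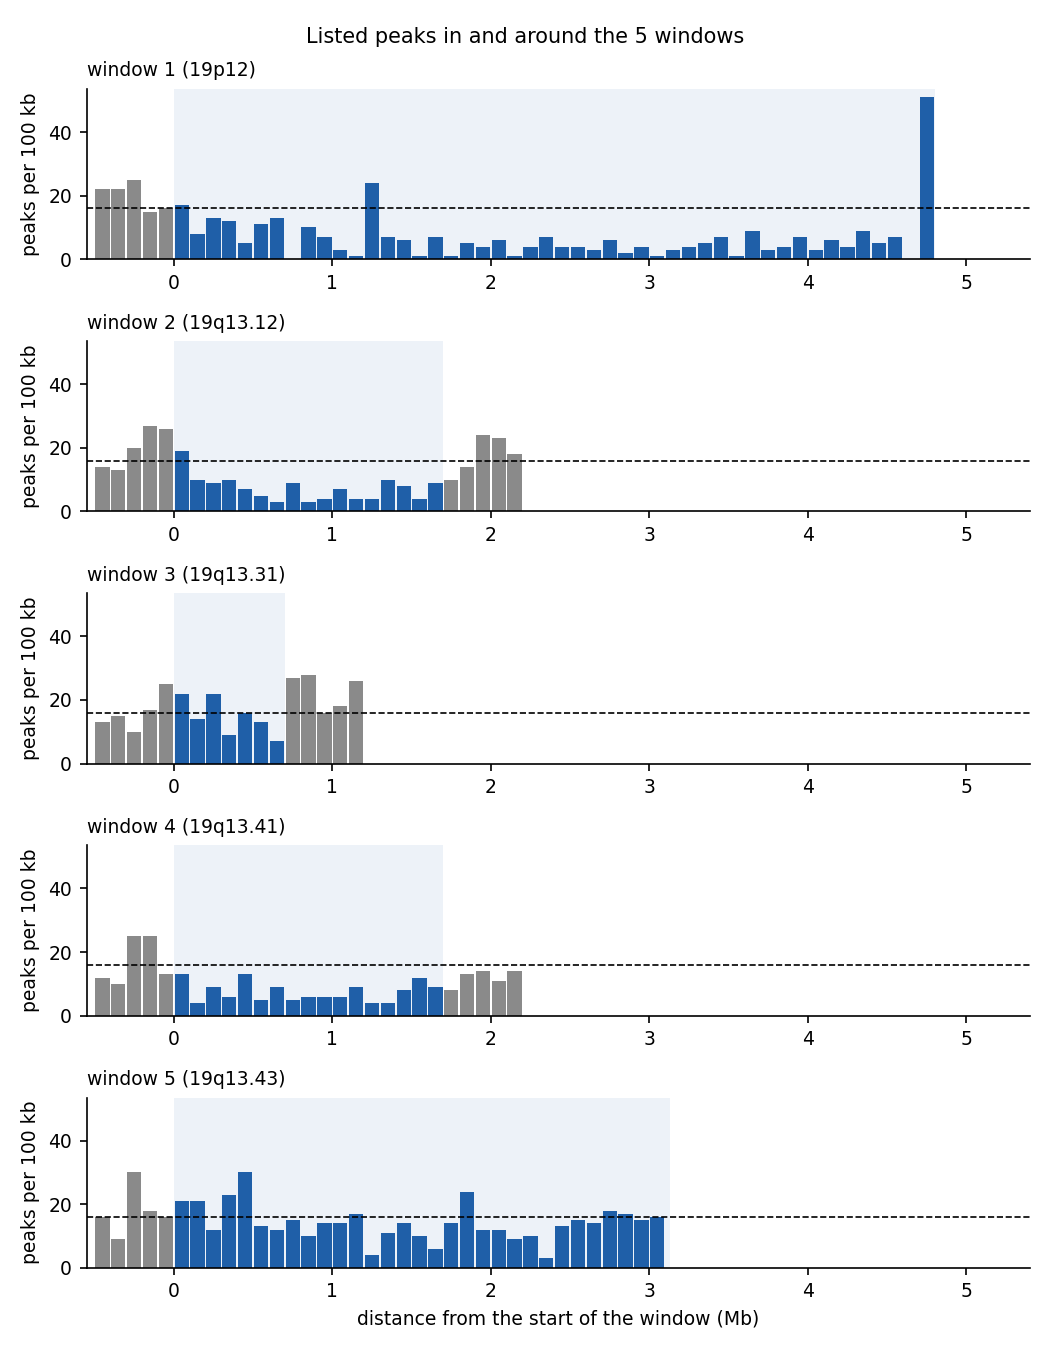
Number of listed peaks per 100 kb (y) by distance from the start of each window in Mb (x), with bins inside the window in blue, up to 500 kb on either side in grey, and the median bin of the rest of the long arm, 16 peaks, as a dashed line. Most bins of windows 1, 2 and 4 lie below the line, window 1 ends in a single bin of 51 peaks, and bins of windows 3 and 5 lie on both sides of it.

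The low densities ran through most of each sparse window. In whole bins of 100 kb, window 4 had between 4 and 13 peaks with a median of 6, and 17 of its 17 bins lay below the median of the rest, 16 peaks. In window 2 the range was 3 to 19 with a median of 7, and 16 of 17 bins lay below. In window 1 it was 0 to 51 with a median of 5, and 45 of 48 bins lay below. Window 3 had 4 of 7 bins below and window 5 had 22 of 31, both with a median of 14. In the rest of the long arm bins ranged from 1 to 75, and 109 of 241 lay below its median. Both of the empty bins were in window 1.

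**Figure D2:**
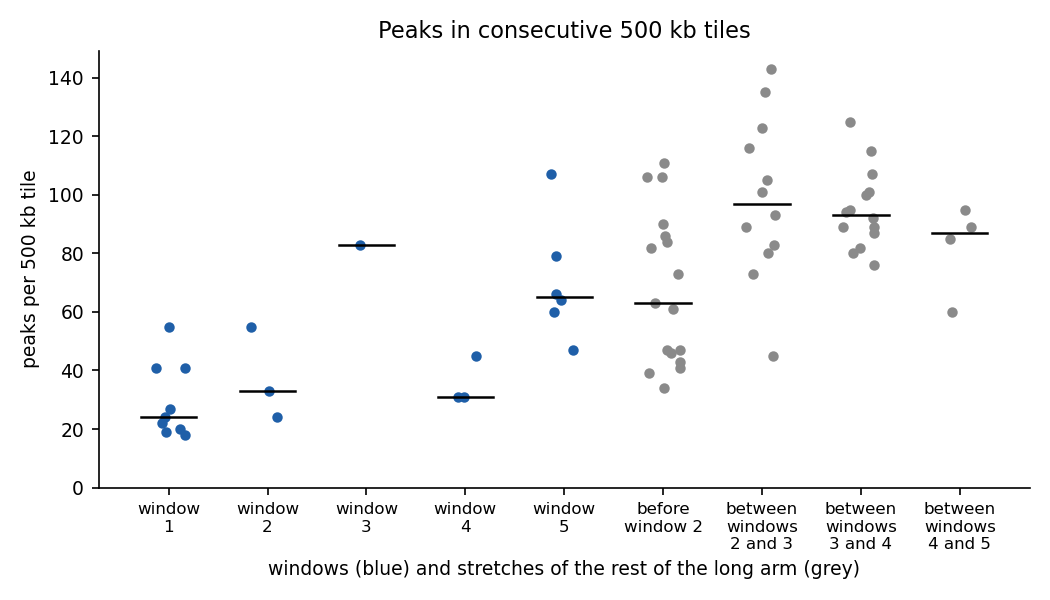
Peaks in consecutive 500 kb tiles (y) for each window (blue) and each stretch of the rest of the long arm (grey), 1 point per tile, with the median as a line. Tiles of window 1 run from 18 to 55 and those of the rest of the long arm from 34 to 143, so the groups overlap. Only whole tiles are shown, which leaves out the last 100 kb of window 1 with its 51 peaks.

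At 500 kb the same order was seen. The 9 whole tiles of window 1 had 18 to 55 peaks with a median of 24, and the 3 tiles of window 2 had 24, 33 and 55. Whole tiles did not reach the last 100 kb of window 1, with its 51 peaks, so that dense part is not counted here. Window 4 had 31, 31 and 45. The only whole tile of window 3 had 83, and the 6 tiles of window 5 had 47 to 107. The 47 tiles of the rest had 34 to 143 with a median of 89. Of the 22 tiles in windows, 21 lay below that median, against 23 of 47 in the rest. The lowest tiles of the rest came from the stretch before window 2, whose tiles had a median of 63.

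Density changed at some window edges and not at others. Outside the start of window 1, 250 kb held 47 peaks, and 250 kb inside held 27. At the start of window 2 the counts were 64 outside and 33 inside, and at its end 37 outside and 18 inside. At the end of window 3 they were 63 outside and 32 inside. At the start of window 4 they were 51 and 21. The start of window 3 (46 outside, 45 inside), the end of window 4 (29 and 26) and the start of window 5 (45 and 50) showed no such drop.

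The peaks next to the edges were ordinary ones. At the start of window 2, chr19:36601853-36601904 (13 reads) lay inside and chr19:36598900-36599091 (15 reads) outside. At the start of window 4, chr19:52312073-52312130 (14 reads) lay inside and chr19:52299823-52299893 (13 reads), 0.148 kb before the edge, outside. At the start of window 5, chr19:56000623-56000741 (17 reads) lay inside and chr19:55991019-55991114 (14 reads) outside. Of the remaining edges, the peaks inside had 12 to 16 reads. Those outside had 13 to 15 reads, except the peak beyond the end of window 1 across the 3.13 Mb stretch, which had 440 reads.

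The end of window 1 departed from the remainder of that window. Its last 100 kb held 51 peaks, 15.7% of the window, all between 24513640 and 24598071 and so within 84.4 kb. The median spacing of their summits was 0.867 kb, against 7.64 kb in the window before it. Their median of 14 reads and maximum of 20 were also those of the window before it, and each part had 1 peak of 20 reads. Both peaks of 19 reads in window 1, chr19:24547240-24547680 and chr19:24593078-24593273, lay among the 51, however. The heights of the 2 parts were not compared further. Of the 51, 2 had a raised background. A stretch of 134 kb without a summit lay directly before them, from chr19:24379362-24379418 to chr19:24513640-24513715, longer than any inside the rest of the long arm (98 kb at most). Without the last 100 kb, window 1 had 58.3 peaks per Mb and a ratio to the rest of the long arm of 0.340 (0.299 to 0.384). The remainder was densest in its first 1 Mb, with 96 peaks, against 48.1 per Mb in the 3.7 Mb that followed.

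The longest stretches without a summit in the other windows were shorter. Window 2 had 73.1 kb between chr19:37229668-37229767 and chr19:37302823-37302885. Window 4 had 63.2 kb, window 3 had 58.3 kb and window 5 had 54.1 kb. Peaks had a nearest neighbour at a median of 2.67 kb in the 5 windows and 1.68 kb in the rest of the long arm. Neighbours were farthest in window 4, with a median of 4.99 kb. A neighbour within 1 kb was present for 290 of 1120 peaks in windows (25.9%, 23.3 to 28.6), against 33.7% (32.3 to 35.2) in the rest and 29.2% of the whole list. The share was 17.2% (11.1 to 24.9) in window 4 and 35% (25.8 to 45) in window 3. In window 1 it was 72.5% in the last 100 kb and 16.8% before it. A lower density alone spaces peaks out, so these shares are not separate from the counts.

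Tall peaks were rarer still. At least 20 reads were reached by 9 of 1120 peaks in windows (0.804%, 0.368 to 1.52), against 121 of 4149 in the rest of the long arm (2.92%, 2.43 to 3.47) and 2.66% of the whole list. At least 25 reads were reached by 2 peaks in windows (0.179%, 0.0216 to 0.644) and by 48 in the rest (1.16%, 0.854 to 1.53), against 0.889% of the whole list. At least 16 reads were reached by 191 (17.1%, 14.9 to 19.4) and 908 (21.9%, 20.6 to 23.2), against 21.2% of the whole list. The median pileup, which the lowest listed pileup of 12 reads holds down, was 14 reads in every window and in the rest. Among peaks that reached 16 reads, 9 of 191 (4.71%, 2.18 to 8.76) reached 20 in windows, against 121 of 908 (interval 11.2 to 15.7%) in the rest. Without the first 500 kb of the long arm, the rest had 108 such peaks of 855 (12.6%, 10.5 to 15).

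**Figure D3:**
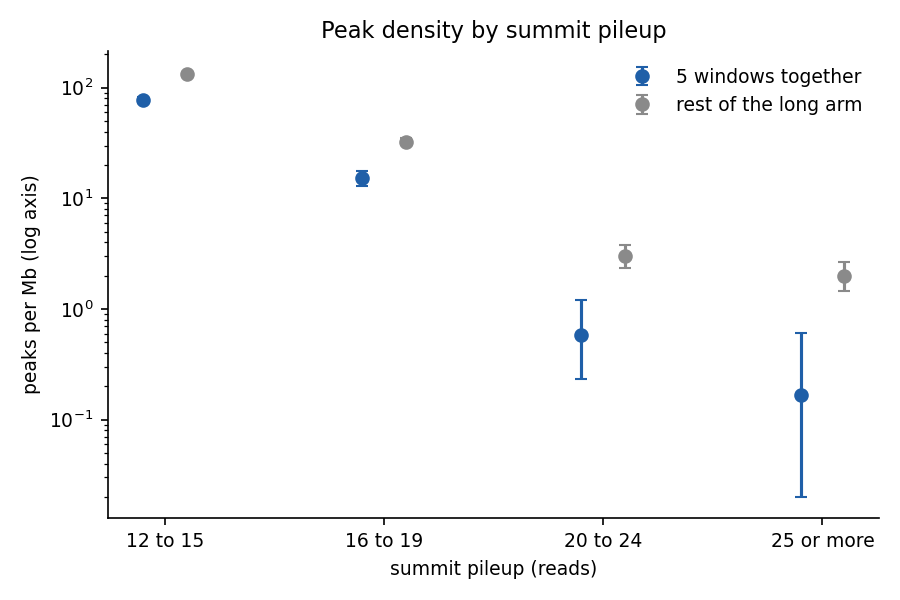
Peaks per Mb (y, log axis) by class of summit pileup (x) in the 5 windows together (blue) and the rest of the long arm (grey), with exact 95% Poisson intervals. The windows lie below the rest in each class, and the distance grows from 77.2 against 134.1 per Mb at 12 to 15 reads to 0.166 against 1.99 per Mb at 25 reads or more.

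Per Mb, the ratio of windows to the rest fell with each class of height. It was 0.576 (0.535 to 0.620) at 12 to 15 reads, with 929 and 3241 peaks. At 16 to 19 reads it was 0.465 (0.393 to 0.547), with 182 and 787 peaks. For 20 reads or more it was 0.149 (0.0667 to 0.293), with 9 and 121 peaks, or 0.164 (0.0730 to 0.323) without the first 500 kb of the long arm. The intervals of neighbouring classes met between the first and the second, and the third lay below both.

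By window, the intervals of the shares of tall peaks overlapped, and the shares of single windows were not compared directly. The tallest peak had 19 reads in windows 2 and 3, 20 in windows 1 and 4, and 40 in window 5. Window 2 had 0 of 125 peaks at 20 reads or more, with an exact interval up to 2.91%, where 3 counts would be 2.4%. Window 3 had 0 of 103, with an exact interval up to 3.52%, where 3 counts would be 2.91%. Window 1 had 2 of 325 (0.615%, 0.0746 to 2.21), window 4 had 1 of 128 (0.781%, 0.0198 to 4.28) and window 5 had 6 of 439 (1.37%, 0.503 to 2.95). The exact intervals of windows 3, 4 and 5 include the 2.92% of the rest of the long arm, so a lower share was not detectable there at this number of peaks. In window 2 the upper bound missed it by 0.0084 percentage points. Against the 2.66% of the rest without its first 500 kb, the interval of window 2 included the reference. Of the windows taken singly, window 1 alone had an upper bound below both shares, each taken as a fixed value. The interval of the second share, 2.19 to 3.20%, reached just below that bound. In the 4 stretches of the rest the shares were 2.91%, 1.77%, 3.30% and 5.47%, all above the 1.37% of window 5. The interval of window 5 nevertheless included the 2.91% and the 1.77%. The stretch with 2.91% also held the 13 such peaks of the first 500 kb of the long arm.

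Of the 9 peaks with at least 20 reads, 6 lay in window 5. The tallest and widest of them was chr19:59091149-59091503, 355 bp wide, with 40 reads and a fold of 7.76, the authors' own value from the list. It lay near the end of the listed peaks of the chromosome, and its −log10 q was 20.9. Next came chr19:56631994-56632170 with 27 reads, a fold of 5.30 and a −log10 q of 9.38. The peak at chr19:56403195-56403433 had 22 reads and that at chr19:56038276-56038502 had 21. The last 2 of the window, chr19:56326682-56326810 and chr19:59031115-59031279, had 20 reads each. So 4 of the 6 lay within 632 kb of the start of window 5 and the other 2 in its last 100 kb.

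Outside window 5 the tall peaks barely passed the limit. Window 1 had chr19:21425061-21425218 and, in its dense last 100 kb, chr19:24529671-24529854, each with 20 reads and a fold of 3.97. Window 4 had chr19:53166140-53166280, also with 20 reads. All 9 had the background of 4.29 reads that 95.8% of the list shared, at which 1 read more or less moves the fold by 0.189. By comparison, the rest of the long arm had chr19:42384339-42384678 with 144 reads and chr19:54518394-54518732 with 118. Its tallest, chr19:27731989-27732280 with 440 reads over a raised background of 61.1 reads, was the first peak after the peak-free stretch.

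The next strongest members stood at 17 to 19 reads. In window 1 these were led by chr19:24547240-24547680 and chr19:24593078-24593273 with 19 reads each, followed by chr19:19860173-19860362 with 18. Window 2 was led by chr19:38187630-38187850 with 19 reads over a raised background of 4.70 reads, ahead of chr19:36755027-36755162 and chr19:36847761-36847932 with 18 each. Window 3 was led by chr19:44771832-44771959 with 19 reads, ahead of chr19:44604412-44604579 and chr19:44758361-44758599 with 18. Window 4 had 4 peaks of 19 reads, at chr19:52355222-52355517, chr19:52940563-52940729, chr19:53062209-53062387 and chr19:53776339-53776523. One read separates such neighbours in rank, so their order carries no weight.

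The 3 longest distances on the long arm between consecutive peaks of at least 20 reads each lay in a window or across one. In all, 127 such distances had a median of 112 kb. The longest, 2.40 Mb, ran inside window 5 from chr19:56631994-56632170 to chr19:59031115-59031279 and held 304 lower peaks. The second, 2.14 Mb from chr19:36460772-36461022 to chr19:38602653-38602915, spanned the whole of window 2 and held 211 lower peaks. The third, 1.49 Mb from chr19:51675249-51675713 to chr19:53166140-53166280, took in the first part of window 4. The sixth, 1.07 Mb, spanned the whole of window 3. The fourth and the fifth, 1.27 Mb and 1.15 Mb, touched no window. On the short arm, where 95 distances had a median of 135 kb, the 2 longest, 3.10 Mb and 1.74 Mb, met at chr19:21425061-21425218 in window 1. A stretch of 1.55 Mb with 352 lower peaks, next in length there, ended before window 1 began.

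Peaks in windows were slightly narrower, and at like height the intervals of the medians met. The median width was 94 bp (91 to 98) in the 5 windows and 101 bp (100 to 103) in the rest of the long arm. It was 90 bp (85 to 96) in window 1, 88 bp (78 to 100) in window 2 and 90 bp (83 to 97) in window 4. Window 3 had 102 bp (94 to 113) and window 5 had 99 bp (93 to 102). The stretches of the rest had medians of 100 to 102 bp. The sparse windows thus had the lowest medians, but each of their intervals met those of windows 3 and 5. At 12 to 15 reads the medians of windows 1 to 5 were 84, 78.5, 97, 84 and 89 bp. At 16 to 19 reads they were 143.5, 136, 152, 149 and 147.5 bp, with window 4 above window 5. A link between density and width was not tested. Listed peaks covered 0.971% of the windows and 1.96% of the rest, with 0.680% in window 1 and 1.60% in window 3 as the extremes among windows.

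**Figure D4:**
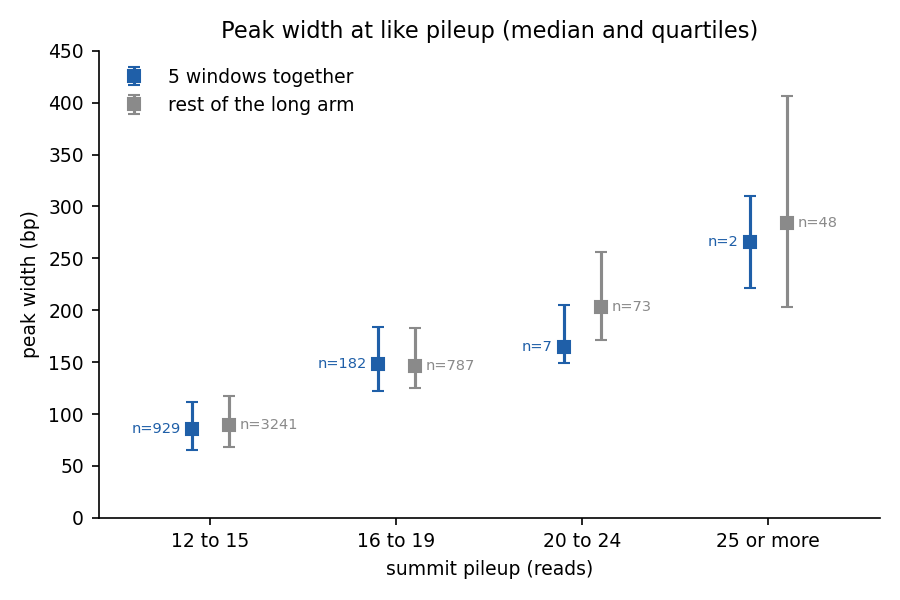
Peak width in bp (y, median with quartiles) by class of summit pileup (x) in the 5 windows together (blue) and the rest of the long arm (grey), with the number of peaks beside each point. Both groups widen with pileup, from 86 and 89 bp at 12 to 15 reads to 148.5 and 146 bp at 16 to 19 reads, and only 7 and 2 peaks stand in the last classes of the windows.

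At 12 to 15 reads the median width was 86 bp (83 to 89) in windows and 89 bp (87 to 91) in the rest, and the intervals met. At 16 to 19 reads it was 148.5 bp (137 to 155) and 146 bp (142 to 150). At 20 to 24 reads, 7 peaks in windows had a median of 165 bp (129 to 239), against 203 bp (186 to 218) for 73 in the rest. At 20 reads or more, 9 peaks in windows had a median of 177 bp (141 to 239), against 220 bp (204 to 251) for 121 in the rest, which also held the taller peaks. The widest members were chr19:24547240-24547680 in window 1 with 441 bp and 19 reads, and chr19:58948201-58948607 in window 5 with 407 bp and 19 reads. Others were chr19:38073293-38073635 in window 2 with 343 bp and 17 reads, and chr19:20061572-20061913 in window 1 with 342 bp and 17 reads. The widest of window 4 was chr19:52355222-52355517 with 296 bp, and that of window 3 was chr19:44758361-44758599 with 239 bp. The widest peak of the rest had 705 bp, at chr19:54899693-54900397.

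A raised background was less common in the 5 windows together. It was present at 26 of 1120 peaks (2.32%, 1.52 to 3.38), against 157 of 4149 in the rest of the long arm (3.78%, 3.22 to 4.41) and 4.19% of the whole list. Of the 157, 32 lay in the first 500 kb of the long arm. Without those 500 kb the share in the rest was 3.08% (2.57 to 3.66), and the intervals met. The 26 backgrounds were low, with 14 at 4.70 reads, 10 at 5.17 and 1 each at 5.64 and 6.11. By window, 6, 3, 5, 2 and 10 peaks from window 1 to window 5 were raised, or 1.85%, 2.4%, 4.85%, 1.56% and 2.28%. Window 3 thus lay above the rest and the whole list, with a wide interval (1.59 to 11.0%) that included both. With peaks at the shared background alone, density, width and the share of tall peaks stayed within the intervals given above. The part of the local background in the low density was not tested.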

How the data were processed

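Per the labels, tagged and untagged ETV6 were each expressed in Reh cells and put through anti-HA beads, and each arm is 1 pooled library. Samples were grouped by transduction label. The build hg19 and the tools MACS2 2.1.1.20160309 and Bowtie2 2.2.3 are named in the submitters' processing notes, without roles or settings. The authors deposited 1 narrowPeak list, of the tagged pool. The deposited fold column is taken as the ratio between the pileup at a summit and the background around it. The deposited −log10 columns are taken as p and q of each summit, with a highest q of 0.0981. The deposited score column was not used. Whether the untagged pool was the caller's control is not given in the sources used here.

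Pileup and background were recovered from fold = (pileup + 1)/(background + 1) and the Poisson upper tail, taking the whole pileup nearest the deposited p. The miss was at most 0.0011% of −log10 p. On 2000 simulated peaks, built with the same formula, 100% were recovered, which tests the solving step and not the formula. The simulated pileups and backgrounds did not reach the highest ones named above. A background within 0.005 reads of the median, or below it, counts as shared. The library's total reads were not used here.

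Densities are peaks per Mb with exact Poisson intervals, and their ratios have exact conditional binomial intervals. Shares have Clopper-Pearson intervals, medians have order-statistic intervals, and a count of 0 allows up to 3 counts. Peaks named are the 5 strongest by −log10 q and the 2 widest of each window, those beside edges and the ends of the longest peak-free stretches, of which the text gives a part. All peaks of at least 20 reads, and the stretches between them, were chosen after their values were seen. The windows, lists and limits were chosen with earlier results of these data known. A RefSeq table of GRCh38.p14 served for gene names and order only, so genes, promoters, motifs and sequences under peaks were not analysed here. The software was scipy 1.17.1, pandas 2.3.3, numpy 2.4.6 and matplotlib 3.10.9 under Python 3.11.15.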

Additional observations from a re-analysis of the deposited data

How the results depend on the processing

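Of 171 alternatives over 19 values, 143 stayed within the interval of the value reported and 28 left it. In 2 of the 28 a direction whose interval had excluded no difference was turned. Values without such a direction also crossed, with the density ratio of window 3 at 1.004 with edges moved outwards and 1.33 against other autosomes, and the width difference of window 5 at 1 bp against them. Window edges 100 kb in or out, stricter q, merging, other lengths, another reference and leaving out windows were tried. The last 100 kb of window 1, the first 500 kb of the long arm and the short arm as reference were added after the data were seen. Against 19 other autosomes the density ratio was 0.840 for the 5 windows and 0.610, 0.663, 1.33, 0.679 and 1.27 for windows 1 to 5, with window 5 turned from 0.817; those autosomes are less dense than the rest of the long arm. At q of at most 0.01, where fewer peaks are kept, it was 0.436 for the 5 windows, 0.263 for window 1, 0.323 for window 4 and 0.736 for window 5. The share of peaks with at least 20 reads, windows minus rest, then went from -2.11 to -9.02 percentage points. For windows 1 to 5 taken singly it was -9.39, -13.7, -13.7, -8.73 and -6.59, each with an interval that included 0. Window 1 kept 46 peaks, and its interval widened to -13.2 to 1.10. Its share was still lower than that of the rest, but its upper bound no longer was. The -13.7 are 0 of 23 and 0 of 18 peaks. In window 2 the interval also included 0 with edges moved inwards, at the shared background, and against other autosomes or the long arm without its first 500 kb. The difference in median width went from -7 to -1 bp, to 1 bp in window 1 (from -11) and to -3.5 bp in window 4. At q of at most 0.05 the share differed by -3.26 points in windows 2 and 3, and with edges moved outwards by -2.98 in window 2. The density ratio of the 5 windows was 0.498 with edges moved inwards (0.326 in window 1), 0.584 with peaks merged, 0.641 without window 1 and 0.446 without window 5. Window 1 ended 100 kb earlier had 0.340. No paired analysis was possible because each arm is 1 pooled library with 1 peak list in all, and no replicate could be left out.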

Other observations

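Summits sat near the middle of their peaks, at a median of 48.2% of the width in the windows (quartiles 30.3 and 65.9) and 48.7% in the rest of the long arm (32.1 and 64.5). The 2 sides of the 3.13 Mb peak-free stretch were unlike. The last 100 kb of window 1 before it had 51 peaks, of which 1 reached 20 reads, with a median width of 98 bp. The first 500 kb after it had 90 peaks, of which 13 reached 20 reads and 5 reached 25, with a median width of 139 bp (124 to 165).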
